A study of Homo sapiens with 5 samples.

Results

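The 10 genes described here are 4 receptors of the ERBB family (EGFR, ERBB2, ERBB3 and ERBB4) and 6 of their ligands (EGF, TGFA, AREG, EREG, HBEGF and BTC), out of 20033 protein-coding genes in the GENCODE 44 annotation. They were taken by name. Open chromatin was measured by ATAC-seq, in which a transposase cuts accessible DNA, in MCF10A cells, an immortalized and non-tumorigenic line of human mammary epithelium. The study sought breast cancer risk variants that may change transcription factor binding in regulatory regions of breast cells, and genes whose expression goes with those variants. There was 1 group, MCF10A at passage below 30, sampled as 5 replicate libraries numbered 1, 2, 3, 5 and 6, grown at 37 °C and 5% CO2 in medium with 5% horse serum, 1% penicillin/streptomycin, 20 ng/ml EGF, 0.5 µg/ml hydrocortisone, 100 ng/ml cholera toxin and 10 µg/ml insulin. The reads of all replicates were merged before regions of open chromatin, called hotspots, were identified, so 1 list of 181723 hotspots with a position and a score describes the line. With 1 pooled list there is no spread between replicates, and the values below are descriptions with no test; the read depth behind a hotspot is unknown. A higher score is taken here as a stronger hotspot, since its scale is not given in the sources used here, and it is used for order alone.

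ERBB receptors are tyrosine kinases of the cell surface. EGFR is bound by EGF, TGFA and AREG, while HBEGF, BTC and EREG bind both EGFR and ERBB4. ERBB2 has no known ligand of its own and acts as the partner of the other receptors, and ERBB3, a receptor of the neuregulins, has a weak kinase and signals through its partners. Bound receptors form dimers and pass the signal to the RAS–ERK and PI3K pathways. The ligands are made as membrane proteins that are cut free, and mammary epithelial cells are known both to make such ligands and to require one for growth, which in this medium is added as EGF.

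Of the 181723 hotspots, 125 belonged to the 10 genes, as they lay within 1000 bp of a transcription start site (TSS) of the gene, had their midpoint inside the gene, or had their midpoint within 100 kb of a TSS with that gene's TSS the nearest of all protein-coding genes. The median score of the 125 hotspots was 6.36 and that of all hotspots was 5.81, in a range from 4.36 to 912. Their median widths were 290 and 287 bp. The genes divided by what lay at the main start: EGFR, ERBB3, TGFA and HBEGF had promoter hotspots wider than 1900 bp, ERBB2, AREG, BTC and EREG had narrower ones, and neither ERBB4 nor EGF had a hotspot at the start of a protein-coding transcript.

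The promoter sequences show where these hotspots lay. They are the 250 bases before a RefSeq start (build GRCh38.p14), 5′ to 3′ along the gene, and the 7 with a hotspot precede the 2 without. Capitals mark matches on either strand to 11 short motifs: AP-1 (TGANTCA), CRE (TGACGTCA), SP/KLF (GGGCGG), TEAD (GGAATG), ETS (CCGGAAG), RUNX (TGTGGTT), CEBP (TTGCGCAA), E-box (CACGTG), and the CTCF, NFKB and glucocorticoid receptor motifs.
EGFR, chr7:55018767-55019016, plus strand: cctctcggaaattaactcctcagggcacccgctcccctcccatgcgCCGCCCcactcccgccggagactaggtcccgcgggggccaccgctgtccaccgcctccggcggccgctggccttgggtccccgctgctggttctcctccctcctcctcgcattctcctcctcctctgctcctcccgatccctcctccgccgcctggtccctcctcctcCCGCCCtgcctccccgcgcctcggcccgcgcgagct
ERBB2, chr17:39687844-39688093, plus strand: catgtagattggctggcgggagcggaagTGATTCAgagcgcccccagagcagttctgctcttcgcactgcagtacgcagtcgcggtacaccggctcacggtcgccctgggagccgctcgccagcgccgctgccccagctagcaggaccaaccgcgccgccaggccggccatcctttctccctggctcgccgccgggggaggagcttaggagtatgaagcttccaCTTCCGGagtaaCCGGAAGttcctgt
TGFA, chr2:70553827-70554076, minus strand: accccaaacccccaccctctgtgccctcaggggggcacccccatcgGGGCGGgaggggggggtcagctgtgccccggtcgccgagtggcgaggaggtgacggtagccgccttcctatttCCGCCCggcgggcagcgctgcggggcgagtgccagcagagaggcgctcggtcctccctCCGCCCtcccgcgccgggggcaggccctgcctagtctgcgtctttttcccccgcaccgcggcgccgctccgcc
HBEGF, chr5:140346604-140346853, minus strand: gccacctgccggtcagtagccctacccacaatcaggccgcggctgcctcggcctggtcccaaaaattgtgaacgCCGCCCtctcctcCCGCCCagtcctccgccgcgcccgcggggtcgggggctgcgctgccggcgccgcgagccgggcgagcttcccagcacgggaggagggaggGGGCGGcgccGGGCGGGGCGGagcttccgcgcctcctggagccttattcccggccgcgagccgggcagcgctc
AREG, chr4:74444886-74445135, plus strand: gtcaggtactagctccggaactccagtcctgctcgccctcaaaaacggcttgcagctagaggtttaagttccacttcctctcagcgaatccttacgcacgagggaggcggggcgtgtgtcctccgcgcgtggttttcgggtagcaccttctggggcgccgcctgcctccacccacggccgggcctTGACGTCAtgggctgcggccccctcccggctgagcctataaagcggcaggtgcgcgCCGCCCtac
BTC, chr4:74794524-74794773, minus strand: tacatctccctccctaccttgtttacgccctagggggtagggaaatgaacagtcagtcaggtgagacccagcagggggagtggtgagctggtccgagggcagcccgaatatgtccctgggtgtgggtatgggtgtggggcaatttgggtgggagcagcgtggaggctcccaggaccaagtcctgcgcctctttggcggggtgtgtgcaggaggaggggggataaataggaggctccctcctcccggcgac
EREG, chr4:74364895-74365144, plus strand: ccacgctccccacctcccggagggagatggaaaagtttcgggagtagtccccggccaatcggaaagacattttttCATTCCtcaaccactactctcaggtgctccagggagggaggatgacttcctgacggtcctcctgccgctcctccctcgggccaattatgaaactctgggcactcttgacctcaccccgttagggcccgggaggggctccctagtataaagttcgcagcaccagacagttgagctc
ERBB4, no hotspot, chr2:212538803-212539052, minus strand: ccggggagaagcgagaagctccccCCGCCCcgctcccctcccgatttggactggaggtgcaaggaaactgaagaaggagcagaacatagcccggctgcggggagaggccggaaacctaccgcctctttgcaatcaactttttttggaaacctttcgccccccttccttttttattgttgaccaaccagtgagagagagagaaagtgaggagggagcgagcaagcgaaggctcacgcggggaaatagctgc
EGF, no hotspot, chr4:109912633-109912882, plus strand: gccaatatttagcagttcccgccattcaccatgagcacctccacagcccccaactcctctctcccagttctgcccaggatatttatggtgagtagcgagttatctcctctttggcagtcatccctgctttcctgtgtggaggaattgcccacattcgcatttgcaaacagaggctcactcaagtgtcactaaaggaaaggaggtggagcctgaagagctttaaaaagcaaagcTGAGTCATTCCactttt

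The hotspot covered all 250 bases at EGFR, ERBB2, TGFA, HBEGF and BTC, 237 bases at AREG and 74 bases at EREG. At EREG these are the last bases of the window, and the marked TEAD match lies outside the hotspot. HBEGF held 5 SP/KLF matches, the TGFA window shown 3, and EGFR 2, and 42.6% of all 35116 RefSeq windows of this length held at least 1. Another TGFA window, chr2:70553447-70553696, before a different RefSeq start and not shown, was covered in full by the same hotspot. It held no match to any of the motifs. AREG held the CRE match, the recognition sequence of the cAMP-responsive CREB factors, which 1.65% of all windows held. The ERBB2 window, before a RefSeq start upstream of the canonical start, held 2 ETS matches on opposite strands, pointing away from each other. An ETS match was held by 8.52% of all windows. The most upstream GENCODE start of ERBB2, at chr17:39687914, lies inside the ERBB2 window and ahead of both matches. In EGF the AP-1 and TEAD matches overlap; 6.57% of all windows held an AP-1 match and 11.9% a TEAD match. A match describes letters in the window and does not show that a factor was bound.

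Sequences away from the main starts, on hg38, are shown for the hotspots that the results below turn on. The windows at EGFR, TGFA, HBEGF and EREG hold AP-1 matches, the letters bound by FOS and JUN proteins. Those in intron 1 of EGFR, in TGFA and in HBEGF were placed around such matches, so they hold them by choice. The central 120 bp of these hotspots held none. The EREG window is centred on its hotspot. Windows centred on the highest-scoring hotspots away from promoters at EGFR, ERBB3, ERBB4, EGF, TGFA, AREG, HBEGF and BTC, not shown, held none. Of the genes with such a centred window, EREG alone had an AP-1 match in it.
EGFR, before the internal start, chr7:55109589-55109838, plus strand: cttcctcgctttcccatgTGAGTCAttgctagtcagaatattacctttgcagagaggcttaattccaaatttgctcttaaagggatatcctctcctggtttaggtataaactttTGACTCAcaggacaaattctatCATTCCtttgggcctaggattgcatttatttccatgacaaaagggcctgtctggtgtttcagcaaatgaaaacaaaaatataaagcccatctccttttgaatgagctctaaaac
EGFR, intron 1, score 32.3, chr7:55133003-55133152, plus strand: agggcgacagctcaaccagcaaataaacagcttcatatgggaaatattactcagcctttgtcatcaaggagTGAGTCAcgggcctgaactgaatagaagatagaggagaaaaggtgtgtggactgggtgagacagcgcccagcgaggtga
TGFA, intron 1, score 25.8, chr2:70524399-70524548, plus strand: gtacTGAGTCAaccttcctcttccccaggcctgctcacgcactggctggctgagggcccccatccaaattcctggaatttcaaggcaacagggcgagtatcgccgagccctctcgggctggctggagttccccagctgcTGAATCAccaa
HBEGF, promoter hotspot, score 23.6, chr5:140344773-140344922, plus strand: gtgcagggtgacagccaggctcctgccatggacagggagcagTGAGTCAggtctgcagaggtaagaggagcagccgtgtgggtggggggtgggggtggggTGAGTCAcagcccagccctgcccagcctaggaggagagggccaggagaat
EREG, intron 1, score 18.0, chr4:74374688-74374837, plus strand: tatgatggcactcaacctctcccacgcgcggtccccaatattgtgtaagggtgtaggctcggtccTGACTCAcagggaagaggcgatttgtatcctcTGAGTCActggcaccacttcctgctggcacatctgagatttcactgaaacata

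A hotspot lay within 1000 bp of a TSS for 10 of the 10 genes when the starts of every annotated transcript were used, against 77.2% of all protein-coding genes. When only the starts of protein-coding transcripts were used, 8 of 10 had one, 3 receptors and 5 ligands, against 74.9% of the 19689 genes with such a start. ERBB4 and EGF made the difference. Neither share stands apart from the background in so small a set. The highest promoter score was 39.5 at TGFA, 38.7 at ERBB3, 23.6 at HBEGF, 22.9 at AREG, 22.2 at EGFR, 18.4 at BTC, 15.7 at ERBB2, 8.24 at EGF, 5.25 at EREG and 4.48 at ERBB4. The median of this value over all genes with a promoter hotspot was 20.4, and 5 of the 10 genes lay above it. EGFR did so only through a start 90.5 kb into the gene, as its canonical start scored 15.8. The ERBB3 value lies in mostly repeated sequence, and it was 29.6 without such hotspots. TGFA and ERBB3 exceeded 89.8% and 89.1% of those genes, whereas EREG exceeded 7.24% and ERBB4 0.634%.

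**Figure D1:**
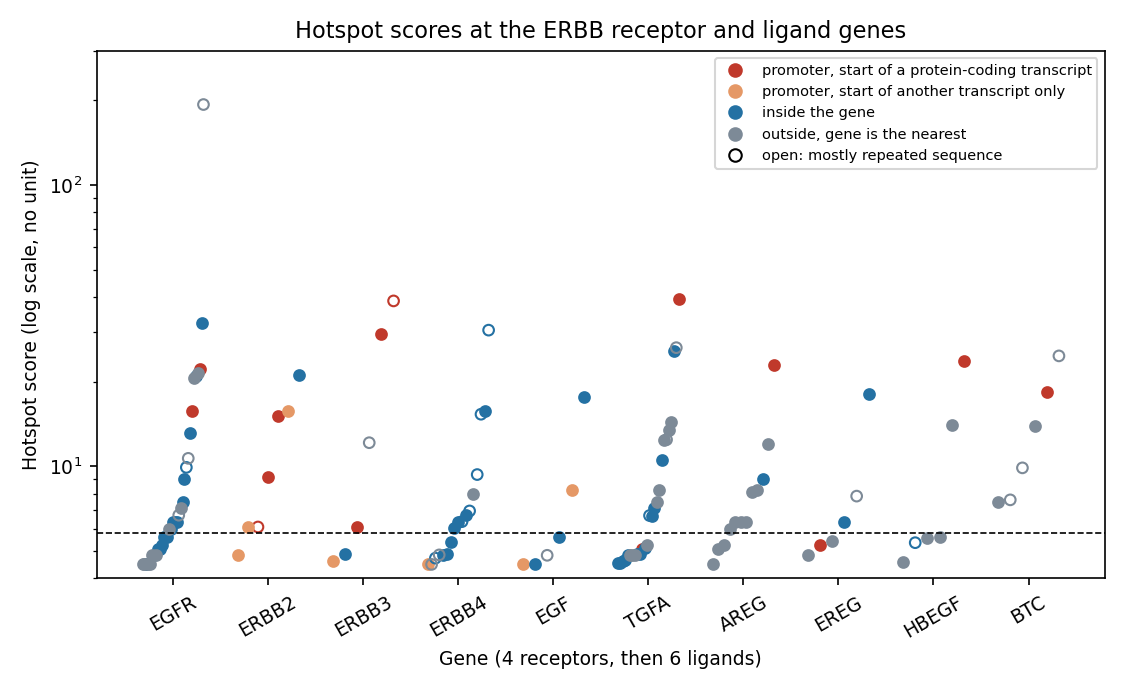
Score (log axis) of every hotspot of the 10 genes, in order of score within each gene. Red points lie at starts of protein-coding transcripts, orange at starts of other transcripts only, blue inside the gene, grey outside it, open points are mostly repeated sequence, and the dashed line is the median of all hotspots, 5.81. The highest point, 193, lies beyond the EGFR gene, and the highest red points are at TGFA and ERBB3.

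Width and score did not rank the promoters alike. The EGFR promoter hotspot was 2672 bp wide, wider than 99.3% of the 24700 promoter hotspots of all genes, but its score of 15.8 was above only 63.9% of them. The HBEGF hotspot, at 2492 bp, was wider than 99.1% and scored above 77.4%. ERBB3, at 2223 bp, was wider than 98.4% and TGFA, at 1916 bp, wider than 96.7%. Thus 4 of the 10 genes had a promoter hotspot wider than 1900 bp, a width passed by 6.81% of all genes with a promoter hotspot. That cut lies just below the 1916 bp of TGFA, and the next widest was 1184 bp at BTC. The 4 genes therefore pass it by choice of the cut, and the contrast with 6.81% is a description only. Within 500 bp of the canonical start the GC content of these 4 genes was 71.9% at EGFR, 71.1% at TGFA, 67.0% at HBEGF and 63.9% at ERBB3, against a median of 61.3% over all genes. ERBB2, with a narrower hotspot, had 64.2%, and the ratio of observed to expected CpG at ERBB3, 0.677, was below the median of 0.725. ERBB4, with no hotspot at its start, had 63.4% GC and a CpG ratio of 0.844, above 76.4% of genes, while EGF had 42.8% GC and a CpG ratio of 0.198.

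**Figure D2:**
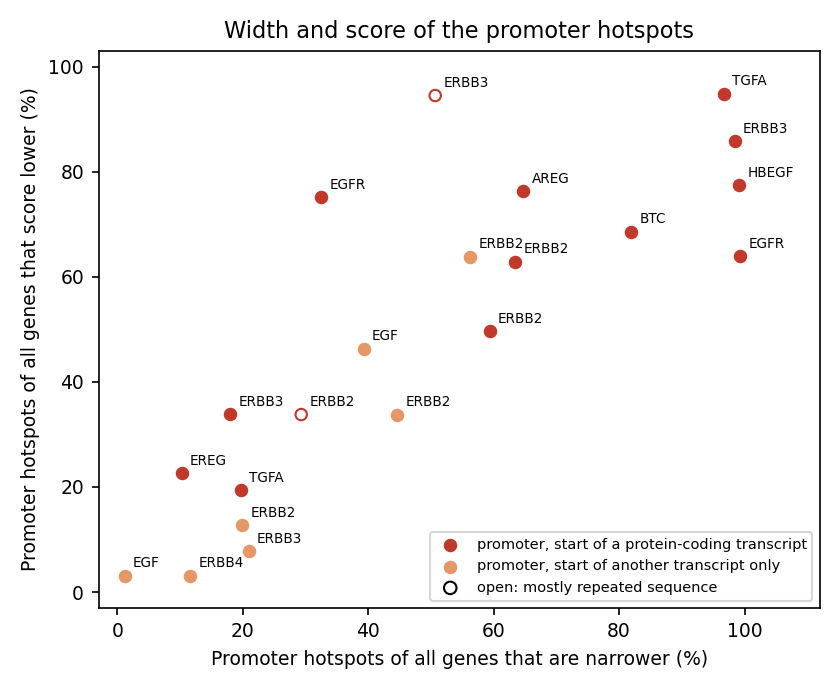
Each promoter hotspot of the 10 genes by the share of all genes' promoter hotspots that are narrower (horizontal, percent) and that score lower (vertical, percent). Red marks starts of protein-coding transcripts, orange starts of other transcripts only, and open points mostly repeated sequence; EGFR, HBEGF, ERBB3 and TGFA lie at the right edge.

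EGFR (chr7:55019017-55211628, plus strand) held 20 hotspots in its 193 kb, 10.4 per 100 kb against 5.76 on chromosome 7. With 33 assigned hotspots it exceeded 98.4% of protein-coding genes, whose median was 5. The promoter hotspot (chr7:55018335-55021006) spanned exon 1 and the beginning of intron 1. A second promoter hotspot, at chr7:55109355-55109688 with a score of 22.2, adjoined an internal start 90.5 kb into the gene, and it held 1 AP-1 match and no TEAD match. It covered the leading 100 bases of the window shown above, and the other capitals there lie outside it. Of the 20 hotspots inside the gene, 14 lay in intron 1, which makes up 63.8% of its length, and none had its midpoint in an exon. The density was 11.4 per 100 kb in intron 1 and 8.61 in the rest.

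The intronic hotspots of EGFR were graded in score. The strongest, at chr7:55132652-55134155, was 1504 bp wide with a score of 32.3, above 97.4% of all hotspots, and lay 114 kb from the canonical start in intron 1. Intron 20 held one of 21.0 at chr7:55186028-55186606, and intron 1 held one of 13.1 at chr7:55073868-55074260. The other hotspots inside the gene, the promoter pair apart, lay between 4.48 and 9.92. Upstream of the gene 7 hotspots were assigned to EGFR, the highest of which scored 20.7 and lay 51.5 kb from the start. Of the 33 hotspots, 14 were at or below the median score of all hotspots.

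Beyond the 3′ end of EGFR lay 6 assigned hotspots, among them the highest score of the 10 genes. The hotspot at chr7:55219809-55220399 scored 193, rank 31 of all 181723. It had 79.0% GC and 16 SP/KLF matches, and 66.6% of its words of 12 bases occurred more than once within it. Of its 561 words of 31 bases, 5.53% occurred once in the genome, and the median word had 213 copies. Another assigned hotspot, at chr7:55254527-55255849, was 1323 bp wide, scored 21.5 and had 99.7% of its words once in the genome. These 6 hotspots were nearest to the start of a retained-intron transcript near the end of EGFR, and the number assigned fell from 33 to 17 when the canonical start alone was used. It was 31 with starts of protein-coding transcripts.

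ERBB2 (chr17:39687914-39730426, plus strand) held 7 hotspots in 42.5 kb, 16.5 per 100 kb against 8.52 on chromosome 17. Of these, 6 lay within 1000 bp of one of its 21 distinct TSSs. The hotspot at the most upstream start (chr17:39687703-39688428) scored 15.2 and lay nearest to a start of PGAP3, the neighbouring gene that the same hotspot adjoins. The hotspot at the canonical start (chr17:39699741-39700408) scored 9.21, and the highest of the 6, at 15.7, lay in intron 1 (chr17:39705712-39706351) beside a transcript without a defined coding sequence. The highest score inside the gene, 21.1 at chr17:39729941-39730825, lay beside the start of MIEN1, whose gene adjoins the end of ERBB2. The hotspot at the gene's canonical start was thus below both neighbours' in score. With 5 assigned hotspots ERBB2 was at the median of all genes.

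ERBB3 (chr12:56076799-56103505, plus strand) had 4 promoter hotspots along 32 distinct TSSs. The hotspot over the canonical start (chr12:56078918-56081140) was 2223 bp wide and scored 29.6, with 99.4% of its words once in the genome. The one with the higher score, 38.7 at chr12:56076199-56076763, lay at the most upstream start, and none of its 535 words occurred once; the median word had 235 copies. A neighbouring hotspot at chr12:56075411-56075656, with a score of 12.1, was repeated in the same way, with a median of 456.5 copies. Without repeated hotspots the highest promoter score of ERBB3 was 29.6. The part of repeated sequence in these scores was not tested.

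ERBB4 (chr2:211375717-212538841, minus strand), the longest of the genes, differed from the other receptors. No hotspot lay at the start of any of its protein-coding transcripts. The only promoter hotspot, with a score of 4.48 at chr2:212124581-212124815, lay in intron 2 beside a retained-intron transcript. In 1163 kb the gene held 14 hotspots, where 70.2 would lie at the mean density of chromosome 2. Its density, 1.20 per 100 kb, was below the 3.66 that was the median of the 323 protein-coding genes longer than 500 kb, of which 10 had a lower one. The highest scores were 30.5 (chr2:211893813-211894114) and 15.3 (chr2:211888582-211888899), both in intron 3, and 15.8 in intron 25 (chr2:211408379-211408873). None of the words of the first occurred once in the genome, and 6.94% of the second's did, whereas the hotspot in intron 25 was unique throughout and held an AP-1 match. Of the 17 hotspots of ERBB4, 8 were mostly repeated sequence, as were 3 of the 6 of BTC.

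**Figure D3:**
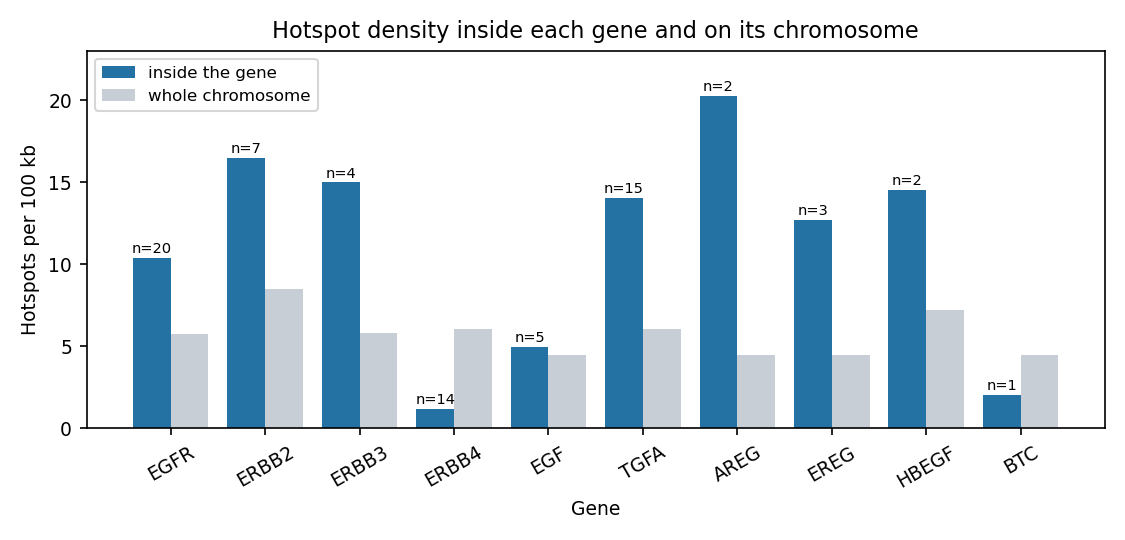
Hotspots per 100 kb inside each gene (blue, with the number of hotspots) and over the whole chromosome (grey). ERBB4 and BTC lie below their chromosome and the other 8 genes above it.

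Inside all 10 genes lay 73 hotspots, and every one of them held at least 1, against 82.4% of all protein-coding genes. The density inside the gene was above that of the chromosome for 8 genes, from 1.11 times at EGF to 4.54 times at AREG, and below it for ERBB4 at 0.20 times and BTC at 0.45 times. The median density of all protein-coding genes, 7.78 per 100 kb, was itself above the 6.19 of the genome. Among all genes, the densities ranged from above 18.3% at ERBB4 to above 83.9% at AREG, with EGF above 35.9% and EGFR above 60.8%. Genes without a hotspot inside count as lower in these shares, and 82.4% of all genes held at least 1. Most of the genes below ERBB4 therefore held none. The share of all genes denser than their chromosome was not counted. Counts of 1 to 3 hotspots stand behind AREG, EREG, HBEGF and BTC. A total of 116 hotspots was assigned to the genes, 33 of them to EGFR and 26 to TGFA. Each of the 10 genes had at least 5, as did 50.1% of all protein-coding genes, and 90.3% of all had at least 1. The cut of 5 is the lowest count among them, at ERBB2 and ERBB3, so all 10 pass it by choice. ERBB2 had 4 with canonical starts or starts of protein-coding transcripts, and BTC had 3 with a 50 kb limit.

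TGFA (chr2:70447284-70554193, minus strand), which encodes transforming growth factor alpha, had the highest promoter score of the 10 genes, 39.5 at chr2:70552510-70554425, above 94.8% of the promoter hotspots of all genes. Inside the gene lay 15 hotspots, 14.0 per 100 kb against 6.03 on chromosome 2, and 26 were assigned, more than for 96.6% of genes. The strongest away from the promoter in unique sequence, at chr2:70524141-70525914 in intron 1, was 1774 bp wide and scored 25.8. Its 2 AP-1 matches lie inside the window shown above. Upstream, hotspots of 14.4, 13.5 and 12.4 followed each other at 1.89, 16.1 and 42.3 kb from the nearest start. The first of these, at chr2:70556082-70556091, was 10 bp wide, the narrowest width in the list, which 81 hotspots share. Downstream, the hotspot at chr2:70430406-70430616 scored 26.4, but none of its words occurred once and the median word had 5242 copies.

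**Figure D4:**
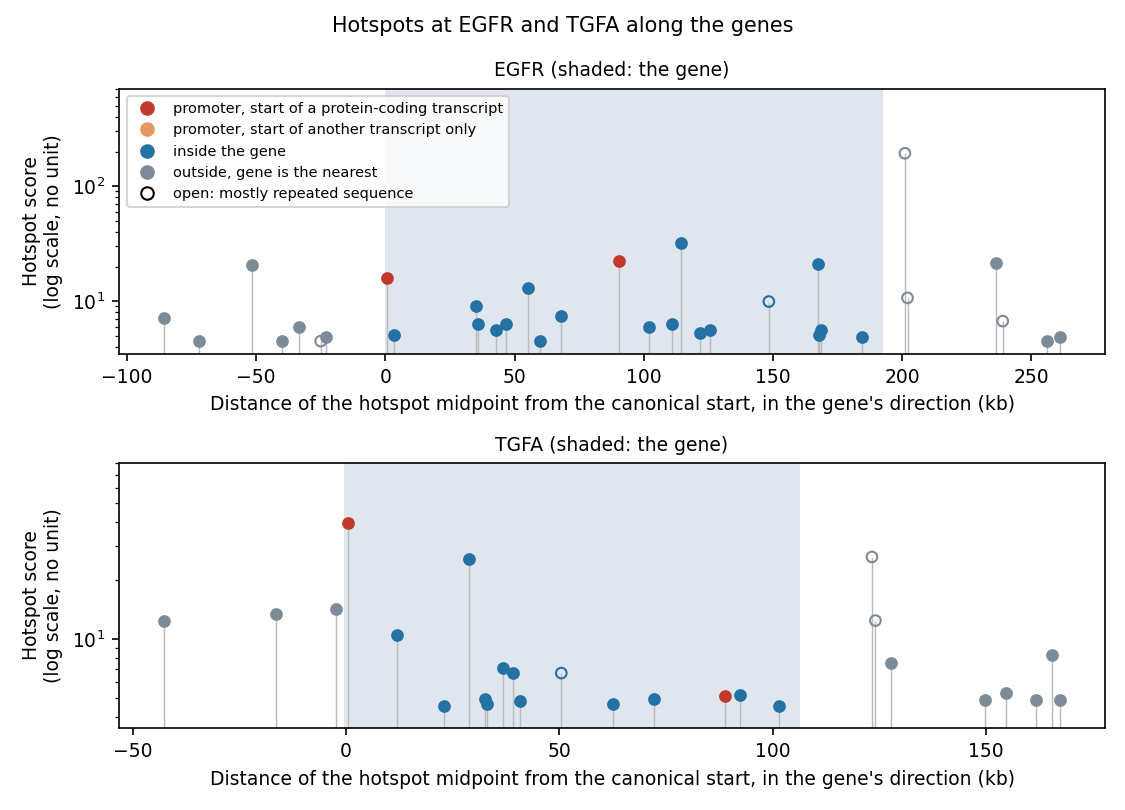
Score (log axis) of each hotspot of EGFR and TGFA against its distance from the canonical start in kb, with the gene shaded. Colours and open points are as in the plot of scores by gene; the open point at 193 lies beyond the EGFR gene, and both genes have a wide intronic hotspot, at 32.3 and 25.8.

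HBEGF (chr5:140332843-140346603, minus strand), which encodes heparin-binding EGF-like growth factor, had a promoter hotspot of 23.6 that spanned the start and reached into intron 2 (chr5:140344542-140347033). It held 11 SP/KLF, 5 TEAD and 3 AP-1 matches. A hotspot of 14.1 lay 1.75 kb upstream (chr5:140348069-140348630), and the remaining 4 assigned hotspots scored 5.62 or less. HBEGF lies on chromosome 5 beyond 120 Mb, where the list held 12.8 hotspots per 100 kb against 4.32 on the rest of the chromosome. Within 100 kb of its start lay 29 hotspots, where 25.7 would lie at the density of that part of the chromosome.

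EREG, AREG and BTC lie in a row on chromosome 4 with EPGN, which encodes epigen, another EGFR ligand. Promoter scores in the row were 6.74 at EPGN, 5.25 at EREG, 22.9 at AREG and 18.4 at BTC, so that the low and the high values were neighbours. EREG (chr4:74365145-74388749, plus strand) encodes epiregulin. Its promoter hotspot, at chr4:74365071-74365294, was 224 bp wide, wider than 10.2% of the promoter hotspots of all genes. The highest score of EREG, 18.0, lay in intron 1 at chr4:74374520-74375005, 9.62 kb from the start, and the window shown above holds its 2 AP-1 matches, the farther one 26 bp from the midpoint. At EREG the intronic hotspot therefore ranked above that of the promoter.

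AREG (chr4:74445136-74455005, plus strand), which encodes amphiregulin, had a promoter hotspot of 22.9 at chr4:74444899-74445669, above 76.3% of all promoter hotspots, and a second hotspot inside the gene of 8.996. It had 12 assigned hotspots, 9 of which lay downstream of the gene. The highest of these was 12.004, at chr4:74471239-74471721, and the lowest 4.48. None of the 12 was mostly repeated sequence, and 6 held an AP-1 match.

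BTC (chr4:74744759-74794523, minus strand), which encodes betacellulin, held 1 hotspot, the one at its promoter (chr4:74793658-74794841), which was 1184 bp wide. The highest of its 6 assigned hotspots, 24.7 at chr4:74722793-74723123, lay beyond the 3′ end of the gene, with 1.66% of its words once in the genome and a median of 1241 copies. Of the 6, 3 were mostly repeated sequence. The highest away from the promoter in unique sequence was 13.9, at chr4:74682777-74683148. Between AREG and BTC lay 290 kb without another protein-coding gene and with 19 hotspots, 6.56 per 100 kb.

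**Figure D5:**
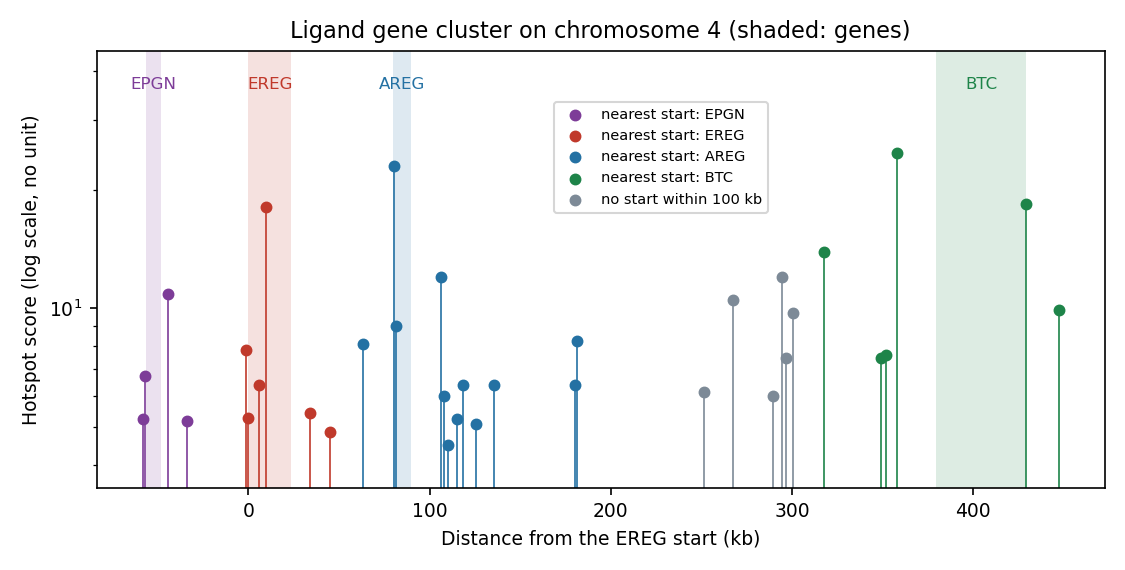
Score (log axis) of the hotspots from EPGN to BTC on chromosome 4 against distance from the EREG start in kb, coloured by the gene with the nearest start, with the genes shaded. The highest points are 24.7 near BTC, 22.9 at the AREG start, 18.4 at the BTC start and 18.0 inside EREG.

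EGF (chr4:109912883-110013766, plus strand), the ligand that the medium supplies, had no hotspot at its main start. Hotspots of 4.48 (chr4:109940073-109940182) and 8.24 (chr4:109967816-109968175) lay within 1000 bp of starts of internal transcripts that are not protein-coding, the latter at 810 bp, and none remained within 500 bp. Its 5 hotspots inside the gene were all intronic, 4.96 per 100 kb against 4.47 on chromosome 4. The highest was 17.6 at chr4:109988966-109989831, 866 bp wide, in intron 18. That hotspot and 2 others of the 6 held an AP-1 match.

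AP-1 matches were found in 34 of the 125 hotspots, or 27.2% (Wilson 95% interval 20.2 to 35.6), against 16.4% of all hotspots. Neighbouring hotspots share a gene and are not independent, so that the interval covers counting error only. The share depended on width. Of hotspots wider than the median of 287 bp, 46.9% of 64 at the genes and 22.8% of all held a match, and of the others, 6.56% of 61 and 10.1% of all. Within the central 120 bp it was 13.6% against 7.60%. The 34 hotspots held 43 matches, 24 of them TGAGTCA or its reverse complement TGACTCA. By gene the share ran from 2 of 17 hotspots at ERBB4 to 6 of 12 at AREG and 3 of 6 at EGF. It was 10 of 33 at EGFR and 5 of 26 at TGFA. The letters differed between genes. Most matches at AREG and EGF, and all at ERBB4, were TGATTCA or its reverse complement TGAATCA. Most at EGFR were TGAGTCA or TGACTCA. TEAD matches, the letters bound by the partners of YAP and TAZ, were in 22.4% of the hotspots and 18.6% of all, and SP/KLF matches in 16.8% and 18.5%. The CTCF motif was in 1 of 125, or 0.8%, against 3.88% of all.

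Strong hotspots lay both in unique and in repeated sequence. A hotspot was called mostly repeated where under 50% of its words of 31 bases occurred once in hg38. That held for 25 of 124 hotspots at the 10 genes, or 20.2%, and for 30.6% of 9021 hotspots taken at every 20th place in the list; the hotspot of 10 bp has no such word. Among the 100 highest scores of the whole list, 98 were mostly repeated. Away from the genes' promoters 10 hotspots scored above 20, and 4 of these were mostly repeated: the highest of EGFR, ERBB4, TGFA and BTC. The other 6 were 4 at EGFR, 1 at TGFA and the one at MIEN1 within ERBB2. With promoters included, 5 of 16 hotspots above 20 were mostly repeated, or 31.25%, close to the 30.9% of 650 such hotspots among every 20th of the list. The part of repeated sequence in the scores was not tested.

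The other pathway genes examined had promoter hotspots almost throughout. They were picked by role, in 6 lists chosen with earlier results of these data known. Of the 36 genes, 35 had one, against the 77.2% of all genes given above, and their median highest score was 26.3. Among the other ligands, 4 of 5 had one, with NRG1 highest at 15.8 and none at NRG3, both neuregulins. Both sheddases, which cut the ligands free, had one, of 39.9 at ADAM17 and 37.9 at ADAM10. All 6 adaptors had one, highest at GRB2 with 32.7, as had all 10 genes from RAS to ERK, and all 5 of the PI3K arm, highest at PIK3R1 with 34.6. All 8 genes of receptor inhibition and turnover had one, highest at SOCS5 with 56.7, a suppressor of cytokine signalling, and 56.2 at LRIG1, which promotes receptor breakdown. Of the 6 lists the other ligands had the lowest median score, 9.38 over 4 genes.

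Markers of cell types were examined in the same way. The counts are to be read against the 77.2% of all genes with a promoter hotspot. Basal mammary genes had one in 5 of 7, with scores from 18.0 at KRT17 to 35.3 at ITGA6 and none at KRT14 or TP63, and luminal genes in 5 of 5, from 7.12 at ESR1 to 33.1 at GATA3. None of the 3 immune genes had one. Fibroblast genes had one in 3 of 3, from 7.87 to 24.1, endothelial genes in 2 of 2 with 5.10 and 5.47, and hepatocyte genes in 1 of 2, ALB with 8.67 at the start of a transcript that is not protein-coding. In pooled cells, open chromatin in fewer cells and less opening per cell cannot be told apart.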

How the data were processed

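Per the labels and the study's methods, ATAC-seq libraries of 5 MCF10A replicates were read as pairs of 75 bases, aligned with Bowtie2 to hg38 (version for these libraries not given in the sources used here), merged and freed of duplicates, and hotspots were called with Hotspot at a false discovery rate of 0.01. The authors deposited 1 pooled list with start, end and score; the score's scale and the depth are not stated, so replicates could not be compared and no test was run. The printed alignment commands set no option for reads with several matches and no filter on mapping quality, so such reads were placed by Bowtie2's default.

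Starts and ends were read as hg38 positions, and every hotspot lay within its chromosome. Genes, TSSs, exons and canonical transcripts came from GENCODE 44, and the promoter windows from RefSeq (9 of the 10 genes matched; ERBB3 did not). The rules for promoter, inside and assigned hotspots are those given in the report; a promoter hotspot overlaps the window by any base. Motifs were matched exactly on both strands, and copies of 31-base words were counted on chromosomes 1 to 22, X, Y and M, on both strands. Python 3.11.15, numpy 2.4.6, pandas 2.3.3, scipy 1.17.1, pysam 0.24.0 and matplotlib 3.10.9 were used. The overlap, distance and motif steps were tested on simulated data.

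The genes, the pathway and marker lists and the motifs were chosen with earlier results of these data known. All 10 genes are named, as are pathway genes without a promoter hotspot, the highest of each list but 1, which is not reported here, ADAM10, LRIG1 and the adjoining PGAP3, MIEN1 and EPGN; ADAM10 and LRIG1 were picked after their values were seen. Alternatives were TSS windows of 500 and 2000 bp, midpoints, canonical starts, a 50 kb limit, hotspots above the median score and the central 120 bp. Starts of protein-coding transcripts alone and leaving out mostly repeated hotspots were added after seeing the data.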

Additional observations from a re-analysis of the deposited data

How the results depend on the processing

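No paired analysis was possible because the replicates were pooled into 1 list, and for the same reason no replicate could be left out. The number of genes with a promoter hotspot was 10 and lay between 8 and 10 under every alternative: it was 9 within 500 bp, without EGF, 8 with canonical starts or starts of protein-coding transcripts, without ERBB4 and EGF, and 8 above the median score, without ERBB4 and EREG. Above the median score, hotspots inside the genes numbered 43 in place of 73 and assigned hotspots 68 in place of 116, and the AP-1 share was 37.8%, against 22.5% of all hotspots above the median. In the central 120 bp the AP-1 share was 13.6%. Canonical starts moved the number of assigned hotspots to 84 and starts of protein-coding transcripts to 107. The highest promoter score of EGFR was 15.8 with the canonical start, and that of ERBB2 was 9.21 with the canonical start, 15.2 with starts of protein-coding transcripts and 21.1 within 2000 bp. That of ERBB3 was 29.6 with the canonical start or without mostly repeated hotspots, and that of EREG 7.84 within 2000 bp, where the added hotspot is mostly repeated. Without mostly repeated hotspots 63 lay inside the genes, 93 were assigned, and the AP-1 share was 34.0%, against 21.1% of the 6265 such hotspots among every 20th of the list. The pathway count was 35 within 500 bp, above the median score and with starts of protein-coding transcripts, the alternatives run for it. The depth is unknown, so a gene without a hotspot cannot be told from one below the limit of detection.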

Other observations

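Some scores were shared by many hotspots. The 9 most frequent scores, from 4.48 to 7.49, lay 0.376 apart and held 20.6% of all hotspots and 39 of the 125 hotspots of the ERBB genes, while the whole list held 73444 distinct scores. The value of 15.8 at the EGFR promoter was held by 229 hotspots, among them the one in intron 25 of ERBB4.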
